A study of Solanum lycopersicum with 14 samples.

Results

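NOR, CNR and AP2a are 3 transcription factor genes of tomato known for their part in fruit ripening, and their transcript levels were followed through fruit development. They were taken by locus, as Solyc10g006880.2 (NOR), Solyc02g077920.2 (CNR) and Solyc03g044300.2 (AP2a), and are 3 of the 26397 genes with counts. In the annotation of the files, on the SL2.40 genome build, NOR lies on chromosome 10, CNR on chromosome 2 and AP2a on chromosome 3. The closest Arabidopsis gene listed for NOR is the NAC gene NARS1, for CNR the SBP-box gene SPL3, and for AP2a the gene FLO2, an older name of APETALA2, so that each locus carries the family of its name. Over the 14 libraries 2244 reads were counted on NOR, 4081 on CNR and 4255 on AP2a, and all 3 genes passed the filter on low counts.

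The fruits came from HG6-61, a late-maturing elite line from China, and from AC (Ailsa Craig), an early variety from England. RNA-seq was run on pericarp of 7 ages, every 7 days from 7 to 49 days after flowering (DAF), and a single library stands for each age of a cultivar, 14 in all. Fruits of 5 plants of a genotype were mixed for a sample, no agent was applied, and neither line was described as carrying a transgene or mutation. The description of the harvest places mature green fruit at 35 DAF, breaker fruit at 42 DAF and ripening fruit at 49 DAF for both cultivars alike, while the stage label of the samples reads mature green at every age up to 35 DAF. Counts per library ranged from 1461817 to 6274456. Seed genes, taken as storage and oil body genes and loci closest to ECP63, were also measured in these pericarp libraries, 16 by their closest Arabidopsis gene. Their summed level was 12.1, 32.6, 4045, 12634, 3931, 824 and 508 RPKM (read counts scaled to gene length and library depth) from 7 to 49 DAF in HG6-61, against 23.4, 371, 17224, 16383, 3252, 871 and 802 RPKM in AC. The sum was thus highest at 28 DAF in HG6-61 and at 21 DAF in AC. Single seed genes differed from it: in HG6-61 10 of the 16 were highest at 21 or 28 DAF and 6 at 35 or 42 DAF, and in AC 14 were highest at 21 or 28 DAF and 2 at 35 DAF. Among all genes tested with a level above 0 in HG6-61, 7.85%, 11.9%, 12.3% and 14.9% were highest at 21, 28, 35 and 42 DAF. In AC the shares were 13.3%, 8.99% and 7.45% at 21, 28 and 35 DAF. Of the 12 seed genes that could be tested, 4 were called higher at the last 3 stages than at the first 4. Of all 18082 genes tested 929 were. At 42 against 7 DAF 7 of the 12 were called higher, beside 1425 of the 18082 genes. Solyc09g008770.2, closest to ECP63 and 1 of the 12, was highest at 42 DAF in HG6-61 (220 RPKM) and at 35 DAF in AC (309 RPKM). The part of seed RNA in the levels of the regulators was not tested.

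Tomato fruit ripens with a burst of ethylene, and a small set of transcription factors is needed for it. NOR is a NAC-domain protein, and fruits of the non-ripening mutant stay green and firm and do not make the ethylene burst. CNR is an SBP-box protein, a target of the microRNA miR156. The Colorless non-ripening fruit, with pale skin and mealy flesh, comes from heavy methylation of the CNR promoter and not from a change of its sequence. AP2a belongs to the APETALA2 branch of plant factors that miR172 regulates. Fruits with little AP2a make more ethylene and ripen early yet stay orange, so that AP2a is known as a brake on ethylene production that is itself switched on during ripening.

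NOR was near the limit of detection in young fruit and among the more abundant transcripts of ripening fruit. In HG6-61 its level was 0.34, 1.22, 2.07, 5.78, 40.1, 138 and 56.2 RPKM in the order of the stages from 7 to 49 DAF. In AC it was 0, 0.81, 6.01, 54.9, 119, 88.8 and 32.2 RPKM over the same stages. The highest library of HG6-61 was thus that of 42 DAF and the highest of AC that of 35 DAF, and in both cultivars the level was lower again at 49 DAF. At these maxima NOR stood above 96.4% of the genes with RPKM values in HG6-61 and above 95.6% in AC. The value of 0 at 7 DAF in AC was 0 reads. A limit of 3 reads there is 1.10 RPKM, and the exact 95% interval ends at 1.35 RPKM. HG6-61 had 2 reads at that stage. NOR at 42 DAF was 414 times its level at 7 DAF in HG6-61, with a 95% interval of 114 to 3430 from counting error alone. In AC its level at 35 DAF was 108 times the limit that 3 reads set at 7 DAF. The exact 95% interval of the ratio of 35 to 7 DAF in AC starts at 87.6. Intervals and limits in this text cover counting error only, since each stage of a cultivar is a single library and the reads carry no molecular identifiers.

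**Figure D1:**
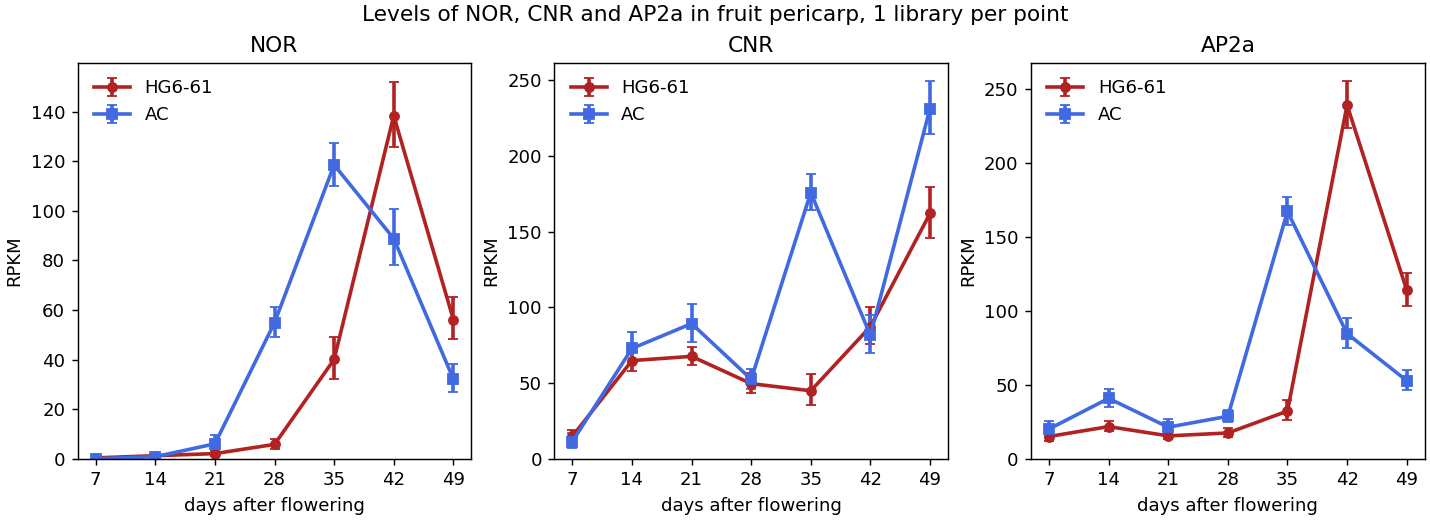
RPKM of NOR, CNR and AP2a against days after flowering in HG6-61 (circles) and AC (squares), 1 library per point, with bars for the exact 95% Poisson interval of the read count. NOR and AP2a were highest at 42 DAF in HG6-61 and at 35 DAF in AC, and CNR was highest at 49 DAF in both.

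The steepest part of the climb of NOR came at a later age in HG6-61 than in AC. In HG6-61 the ratio of 28 to 21 DAF was 2.77 (1.53 to 5.16) and in AC that of 21 to 14 DAF was 7.46 (2.18 to 39.6), on 3 reads at 14 DAF. Next, in HG6-61 the ratio of 35 to 28 DAF was 7.49 (4.98 to 11.5) and that of 42 to 35 DAF was 3.27 (2.60 to 4.14). In AC the ratio of 28 to 21 DAF was 9.08 (5.65 to 15.5) and that of 35 to 28 DAF was 2.19 (1.93 to 2.50). After the maximum, the ratio of 49 to 42 DAF was 0.402 (0.335 to 0.480) in HG6-61. In AC the ratio of 42 to 35 DAF was 0.751 (0.648 to 0.868) and that of 49 to 42 DAF was 0.366 (0.294 to 0.455). Each of these steps was larger than counting error.

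With the cultivars taken as the 2 samples of each stage, NOR rose at the last 3 stages (35, 42 and 49 DAF) against the first 4 stages (7, 14, 21 and 28 DAF), by 5.31 ± 0.52 on the log2 scale (SE, edgeR quasi-likelihood test, adjusted p = 1.72e-05). The means were 78.2 ± 52.7 RPKM at 35 to 49 DAF against 2.35 ± 2.39 RPKM at 7 to 28 DAF in HG6-61 (SD over 3 and 4 libraries), and 79.8 ± 43.9 against 15.4 ± 26.4 RPKM in AC. In HG6-61 the late libraries all lay above the early ones, whereas in AC the library of 28 DAF, at 54.9 RPKM, lay above that of 49 DAF. How many of all genes were without such overlap was not counted. The 2 samples of a stage were matched by days after flowering and not by ripeness. At 35 DAF NOR was at 40.1 RPKM in HG6-61 and at 119 RPKM in AC. What this matching did to the tests was not tested. A gene was called here if its adjusted p was under 0.01 and its log2 fold change lay beyond 2. In this comparison 18.2% of the 18082 genes tested were called, 929 of them higher and 2363 lower, and the median of all genes was -0.17. Leaving out any 1 library left the rise of NOR called, with values between 5.01 and 6.22.

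Against 7 DAF, NOR was called at 28, 35, 42 and 49 DAF, with log2 fold changes of 6.54 ± 1.30, 8.38 ± 1.27, 9.05 ± 1.27 and 7.68 ± 1.27 and adjusted p of 0.00427, 0.000685, 0.000295 and 0.000743. At 14 DAF the value was 2.03 ± 1.77 and at 21 DAF 3.67 ± 1.5, with adjusted p of 0.659 and 0.129. Of all genes, 0.675% were called at 14 DAF and 4.34% at 21 DAF. The share was 9.84% for 28 DAF, 15.2% for 35 DAF, then 21.0% for 42 DAF and 22.6% for 49 DAF. These fitted values rest on the 2 reads of both libraries at 7 DAF and depend on how a count of 0 is treated. The numbers of genes called from 14 to 49 DAF, which were 122, 784, 1779, 2752, 3801 and 4095, came to 11, 113, 481, 1036, 2055 and 2137 without AC at 7 DAF and to 22, 167, 581, 1321, 2467 and 2587 without HG6-61 at 7 DAF. For NOR without AC at 7 DAF the calls at 28, 35 and 49 DAF were lost (adjusted p = 0.0482, 0.0114 and 0.0102). The call at 28 DAF was also lost without AC at 28 DAF (log2 fold change 4.58, adjusted p = 0.0252) and without HG6-61 at 7 DAF (10.17, adjusted p = 0.0289). The call at 42 DAF held in all 14 such fits, with values between 8.03 and 12.70.

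CNR had another course, with an early step, a plateau and a late climb. In HG6-61 its level was 14.8, 64.8, 67.6, 49.6, 44.9, 87.3 and 162 RPKM from 7 to 49 DAF. In AC it was 11.3, 72.8, 89.3, 52.5, 176, 81.4 and 231 RPKM. The lowest library was that of 7 DAF and the highest that of 49 DAF in both cultivars. Between them HG6-61 stayed within 44.9 to 87.3 RPKM, while AC had a separate high library at 35 DAF with lower ones on either side.

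The early step of CNR was of like size in the cultivars. Its ratio of 14 to 7 DAF was 4.49 (3.42 to 5.97) in HG6-61 and 6.38 (4.13 to 10.3) in AC. Its ratio of 21 to 14 DAF was 1.04 (0.899 to 1.20) in HG6-61 and 1.23 (1.01 to 1.51) in AC. The level then came down, with a ratio of 28 to 21 DAF of 0.728 (0.616 to 0.859) in HG6-61 and 0.586 (0.484 to 0.710) in AC. The late climb in HG6-61 was made of a ratio of 42 to 35 DAF of 1.85 (1.42 to 2.44) and of 49 to 42 DAF of 1.83 (1.54 to 2.18). In AC the ratio of 35 to 28 DAF was 3.41 (2.95 to 3.95), that of 42 to 35 DAF 0.464 (0.391 to 0.548) and that of 49 to 42 DAF 2.87 (2.42 to 3.41). The dip of AC at 42 DAF rests on 1 library with 171 reads of CNR.

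Over both cultivars CNR was called higher than at 7 DAF at 21, 35, 42 and 49 DAF, with log2 fold changes of 2.50 ± 0.49, 3.30 ± 0.51, 2.92 ± 0.50 and 4.11 ± 0.52 and adjusted p of 0.00773, 0.000798, 0.000938 and 0.000162. At 14 DAF the value was 2.33 ± 0.49 with an adjusted p of 0.0321, and at 28 DAF it was 1.95 ± 0.49 with an adjusted p of 0.013, so that neither passed. For the last 3 stages against the first 4, the log2 fold change of CNR was 1.75 ± 0.25 (adjusted p = 0.000176), which passed the limit on p but not that on size. The means were 98.1 ± 59.3 against 49.2 ± 24.3 RPKM in HG6-61 and 163 ± 75.8 against 56.5 ± 33.6 RPKM in AC (SD over 3 and 4 libraries), and the late and early libraries overlapped in both cultivars. The call at 21 DAF was lost in 10 of the 14 fits that left out a library (adjusted p up to 0.105), and those at 35 and 42 DAF were lost without AC at 7 DAF (adjusted p = 0.0156 and 0.0161). That at 49 DAF held in all 14, with values between 3.70 and 4.66.

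AP2a was present at a modest level in young fruit and had a sharp maximum of 1 stage. In HG6-61 its level was 15.0, 21.7, 15.5, 17.4, 32.2, 239 and 114 RPKM from 7 to 49 DAF. In AC it was 20.1, 40.8, 21.3, 28.7, 167, 84.6 and 52.8 RPKM. The 4 libraries of young fruit and the 3 later ones did not overlap in either cultivar. How many of all genes were without such overlap was not counted. The maximum was 2.10 times the next highest library in HG6-61 (42 DAF) and 1.98 times in AC (35 DAF), and at these maxima AP2a stood above 98.2% of all genes in HG6-61 and 97.0% in AC.

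The largest step of AP2a was the last before its maximum. Its ratio of 42 to 35 DAF in HG6-61 was 7.00 (5.61 to 8.81), after a ratio of 35 to 28 DAF of 2.02 (1.51 to 2.69). In AC the ratio of 35 to 28 DAF was 5.92 (5.11 to 6.89), after a ratio of 28 to 21 DAF of 1.35 (1.03 to 1.78). AP2a then stood lower, with a ratio of 49 to 42 DAF of 0.472 (0.419 to 0.530) in HG6-61 and of 42 to 35 DAF of 0.508 (0.444 to 0.578) in AC. A small early maximum at 14 DAF was seen in both cultivars, where the ratio to 7 DAF was 1.47 (1.15 to 1.90) in HG6-61 and 2.03 (1.52 to 2.75) in AC. Over both cultivars that difference was not called (log2 fold change 0.80 ± 0.70, adjusted p = 0.662).

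AP2a rose at the last 3 stages against the first 4, by 2.67 ± 0.38 on the log2 scale (adjusted p = 0.000171). The means were 128 ± 104 against 17.4 ± 3.06 RPKM in HG6-61 and 102 ± 59.0 against 27.7 ± 9.51 RPKM in AC (SD over 3 and 4 libraries). Leaving out any 1 library kept this call, with values between 2.17 and 3.03. Against 7 DAF, AP2a was called at 42 DAF alone (3.57 ± 0.76, adjusted p = 0.00324), while 35 DAF (2.82 ± 0.74, adjusted p = 0.0124) and 49 DAF (2.58 ± 0.73, adjusted p = 0.0142) missed the limit. The call at 42 DAF was lost without AC at 7 DAF, HG6-61 at 7 DAF or HG6-61 at 42 DAF (adjusted p = 0.0302, 0.0324 and 0.039).

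All 3 regulators differed between stages when the 6 stage terms were tested together, as did 32.9% of all genes, or 5946 genes, with 3511 without AC at 7 DAF and 3615 without HG6-61 at 7 DAF. The adjusted p was 0.000379 for NOR, 0.00142 for CNR and 0.00396 for AP2a. For AP2a it rose above the limit without AC at 7 or 21 DAF or HG6-61 at 7 or 21 DAF, to at most 0.0132. Each stage holds 1 library per cultivar, and the model has a term for cultivar. The spread in these tests is therefore how far the difference between the cultivars varies from stage to stage. It is not the spread between fruits or plants. In pericarp RNA, more RNA per cell and more cells of a type that holds it cannot be told apart.

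Between the cultivars the 3 regulators differed at single stages by more than counting error, and for NOR and AP2a the sign of the difference turned between 35 and 42 DAF. NOR had an HG6-61 to AC ratio of 0.345 (0.172 to 0.698) at 21 DAF, 0.106 (0.0715 to 0.151) at 28 DAF and 0.360 (0.287 to 0.448) at 35 DAF. At 14 DAF, with 8 reads in HG6-61 and 3 in AC, the ratio was 1.53 (0.366 to 8.94). It was 1.57 (1.34 to 1.84) at 42 DAF and 1.72 (1.36 to 2.18) at 49 DAF. NOR was thus lower in HG6-61 by 9.47 times at 28 DAF, and higher in HG6-61 at the last 2 stages.

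AP2a was lower in HG6-61 at 14, 21, 28 and 35 DAF, with ratios of 0.537 (0.433 to 0.667), 0.728 (0.551 to 0.970), 0.605 (0.478 to 0.762) and 0.206 (0.164 to 0.256). At 42 DAF it was higher in HG6-61 by 2.85 times (2.48 to 3.27) and at 49 DAF by 2.13 times (1.82 to 2.51). At 7 DAF the ratio was 0.741 (0.537 to 1.03), within counting error. CNR differed less, with ratios of 1.28 (0.784 to 2.16), 0.901 (0.753 to 1.08), 0.761 (0.643 to 0.902) and 0.945 (0.782 to 1.14) from 7 to 28 DAF. At 35 DAF CNR was lower in HG6-61, at a ratio of 0.270 (0.211 to 0.342), at 42 DAF the ratio was 1.08 (0.878 to 1.33), and at 49 DAF it was 0.691 (0.608 to 0.784). CNR in HG6-61 therefore did not pass above AC at the end, as NOR and AP2a did.

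**Figure D2:**
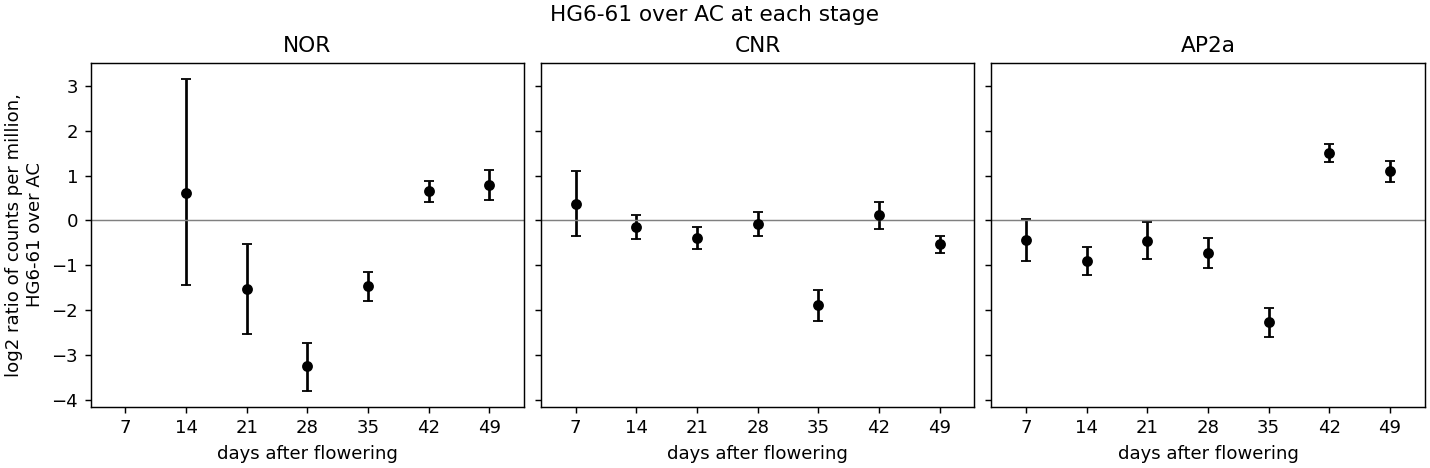
Log2 ratio of CPM (counts scaled to the library total), HG6-61 over AC, at each stage for NOR, CNR and AP2a, 1 library per cultivar and stage, with exact 95% intervals of counting error. The point of NOR at 7 DAF is left out because AC had 0 reads, and the ratios of NOR and AP2a lie below 0 at 28 and 35 DAF and above 0 at 42 and 49 DAF.

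In models over all 14 libraries none of these differences passed. Over all stages the log2 fold change of HG6-61 against AC was -0.80 ± 0.51 for NOR (adjusted p = 0.488), -0.44 ± 0.25 for CNR (adjusted p = 0.431) and -0.36 ± 0.39 for AP2a (adjusted p = 0.71), where 0.238% of all genes were called. For the late rise, the difference between HG6-61 and AC on the log2 scale was 1.75 ± 0.91 for NOR (adjusted p = 0.553), -0.80 ± 0.46 for CNR (adjusted p = 0.593) and 0.74 ± 0.81 for AP2a (adjusted p = 0.822). In that comparison edgeR called 0% of genes, with 1868 genes at an unadjusted p under 0.05, while DESeq2 called 73 and limma 0. Leaving out 1 library gave values between 0.50 and 2.61 for NOR and between -1.27 and -0.23 for CNR. The value of AP2a turned negative without AC at 42 DAF (-0.11) or without HG6-61 at 42 DAF (-0.10).

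A term for HG6-61 at a single stage, set against its difference from AC at the other stages, tested each late stage by itself. At 28 DAF it was -3.03 ± 0.95 on the log2 scale for NOR (unadjusted p = 0.00897, adjusted p = 1.0), 0.35 ± 0.73 for CNR and -0.51 ± 1.10 for AP2a. At 35 DAF it was -1.14 ± 1.18 for NOR (adjusted p = 0.804), -1.90 ± 0.44 for CNR (adjusted p = 0.147) and -2.46 ± 0.82 for AP2a (adjusted p = 0.297). At 42 DAF it was 1.71 ± 1.16 for NOR, 0.51 ± 0.72 for CNR and 2.06 ± 0.93 for AP2a, and at 49 DAF it was 1.85 ± 1.13, -0.26 ± 0.71 and 1.56 ± 1.0 for the same genes. The adjusted p of these 6 values lay between 0.514 and 0.945. With edgeR, 0.0608% of all genes were called at 35 DAF and 0% at 28, 42 and 49 DAF, where 448, 1269 and 2372 genes had an unadjusted p under 0.05. DESeq2 called 2, 4 and 53 genes at these 3 stages and limma 0 at each.

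The step of 42 against 35 DAF set the cultivars apart in direction, a contrast chosen after the levels were seen. NOR, CNR and AP2a were each higher at 42 than at 35 DAF in HG6-61, with the ratios of 3.27, 1.85 and 7.00 given above. They were each lower at 42 than at 35 DAF in AC, with ratios of 0.751, 0.464 and 0.508. In edgeR the difference of HG6-61 from AC in this step was 2.21 ± 1.44 on the log2 scale for NOR (adjusted p = 0.663), 2.08 ± 0.56 for CNR (adjusted p = 0.269) and 3.87 ± 0.85 for AP2a (adjusted p = 0.217). In this step 0.0111% of all genes were called. DESeq2 called that of AP2a (3.80, adjusted p = 0.00762), for which the adjusted p over all alternatives ran from 0.00762 to 0.412.

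When HG6-61 was set against AC 1 stage earlier, 7 days in calendar time, NOR and AP2a of the cultivars lay closer together and CNR did not. Over the 6 AC stages from 7 to 42 DAF the mean absolute difference of NOR in log2(RPKM + 1) was 0.55 with HG6-61 taken 1 stage later, against 1.19 at the same stage. For AP2a it was 0.47 against 1.04, and for CNR 0.93 against 0.51. The median over all genes tested was 0.62 against 0.47, and 27.2% of genes were closer with the shift. With the shift, NOR in HG6-61 against AC was 5.78 against 6.01 RPKM (28 and 21 DAF), 40.1 against 54.9 RPKM (35 and 28 DAF) and 138 against 119 RPKM (42 and 35 DAF). The match was less close at the other pairs of stages. There NOR was 1.22 RPKM in HG6-61 against 0 in AC (14 and 7 DAF), 2.07 against 0.81 RPKM (21 and 14 DAF) and 56.2 against 88.8 RPKM (49 and 42 DAF). AP2a was 32.2 against 28.7 RPKM (35 and 28 DAF), 239 against 167 RPKM (42 and 35 DAF) and 114 against 84.6 RPKM (49 and 42 DAF), but it was 15.5 RPKM in HG6-61 against 40.8 RPKM in AC at 21 and 14 DAF. The largest shifted difference of CNR was at its early step, 64.8 RPKM in HG6-61 at 14 DAF against 11.3 RPKM in AC at 7 DAF, a step that both cultivars made at the same age.

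**Figure D3:**
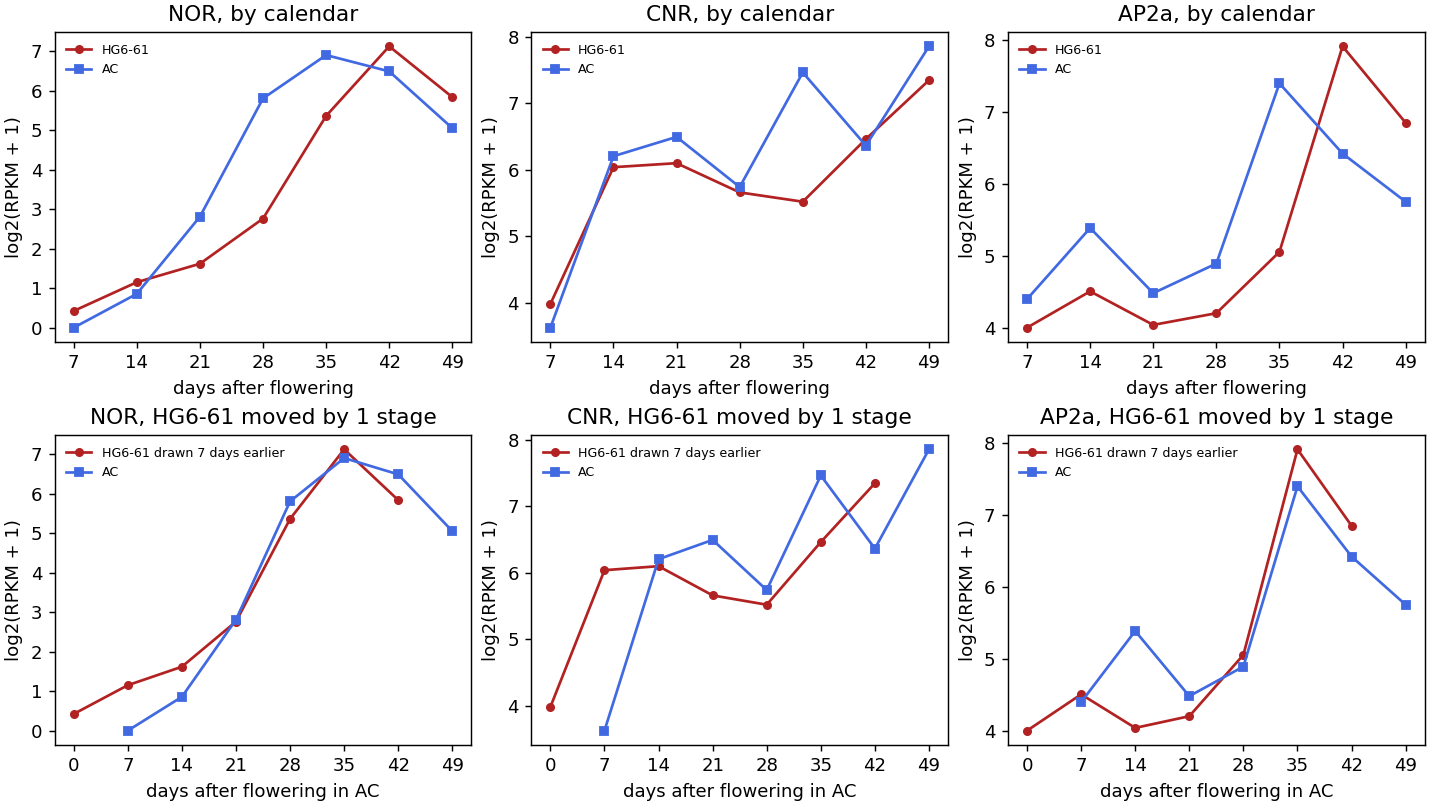
Log2(RPKM + 1) of NOR, CNR and AP2a by days after flowering (upper row) and with HG6-61 drawn 7 days earlier (lower row), HG6-61 as circles and AC as squares, 1 library per point. With HG6-61 moved by 1 stage the maxima of NOR, at 138 and 119 RPKM, and those of AP2a, at 239 and 167 RPKM, fall at the same place, while the early step of CNR comes apart.

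Ordered by level over the 14 libraries, NOR ran from HG6-61 at 42 DAF through AC at 35 DAF and AC at 42 DAF, each apart from the next by more than counting error. HG6-61 at 49 DAF and AC at 28 DAF did not differ beyond it (ratio 1.04, 0.860 to 1.25), nor did HG6-61 at 35 DAF and AC at 49 DAF (1.31, 0.992 to 1.73) or AC at 21 DAF and HG6-61 at 28 DAF (1.04, 0.553 to 1.91). Of the 13 neighbouring pairs 7 were not separated for NOR, 9 for CNR and 7 for AP2a. For CNR the order was led by AC at 49 DAF, then AC at 35 DAF and HG6-61 at 49 DAF, of which the last pair had a ratio of 1.09 (0.962 to 1.23). The first 6 libraries of AP2a, from HG6-61 at 42 DAF through AC at 35 DAF, HG6-61 at 49 DAF, AC at 42 DAF and AC at 49 DAF to AC at 14 DAF, were each separated from the next. Rescaling with TMM factors, which correct for the share of a library taken by a few genes, brought the maxima of NOR to 146 RPKM in HG6-61 and 144 RPKM in AC.

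NOR and AP2a were the most alike of the 3 pairs in HG6-61. Over the 7 stages of HG6-61, on log2(RPKM + 1), Pearson's r of NOR with AP2a was 0.891 and Spearman's rho 0.893, with exact permutation p of 0.0107 and 0.0738 after adjustment over the 6 pairs of genes and cultivars. In AC r was 0.712 and rho 0.821 (adjusted exact permutation p = 0.131 and 0.102). With the 2 stages left out that lay farthest from the NOR median, r was 0.826 in HG6-61 and 0.811 in AC. In AC the order of the pairs depended on the pseudocount, since with 0.1 in place of 1 r was 0.68 for NOR with AP2a and 0.75 for NOR with CNR. For NOR with CNR r was 0.624 in HG6-61 and 0.653 in AC, and without those stages 0.293 and 0.0929. The latter 2 values come from fewer stages with a narrower range of NOR, and so cannot show what the relation rested on. For CNR with AP2a r was 0.648 in HG6-61 and 0.643 in AC, and rho of both NOR with CNR and CNR with AP2a lay between 0.5 and 0.643, with adjusted exact permutation p of 0.131 for r and 0.167 to 0.267 for rho. Stages follow each other in time and are not independent replicates.

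The other genes of ripening were taken from 4 lists of 21 loci, and 15 of them rose at the last 3 stages against the first 4, none fell and 6 did not pass. The median log2 fold change of the 21 was 3.78, beside -0.17 over all genes, of which 929 of the 18082 tested were called higher. Without AC at 35 DAF 9 of them rose, and with limma on log2(RPKM + 1) 10 did. Of 4 MADS-box loci 2 rose, the ripening regulator RIN (Solyc05g012020.2) by 8.78 ± 0.96 (adjusted p = 3.4e-05) and Solyc06g069430.2, closest to FUL of Arabidopsis, by 3.78 ± 0.33. The 7 ethylene loci all rose, with a median of 4.98, among them Solyc01g095080.2, closest to the ACC synthase gene AT-ACC2, by 9.04 ± 0.78. Of 5 carotenoid loci 2 rose, Solyc03g031860.2 (phytoene synthase, the enzyme that opens the carotenoid pathway) by 5.12 ± 0.70 and Solyc12g098710.1 (Z-ISO1.2) by 4.33 ± 0.45. Of 5 softening loci 4 rose, led by Solyc10g080210.1, closest to the polygalacturonase gene QRT2 of Arabidopsis, by 10.70 ± 1.49. NOR, at 5.31, lay above the median of these loci, AP2a, at 2.67, below it, and CNR, at 1.75, further below.

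**Figure D4:**
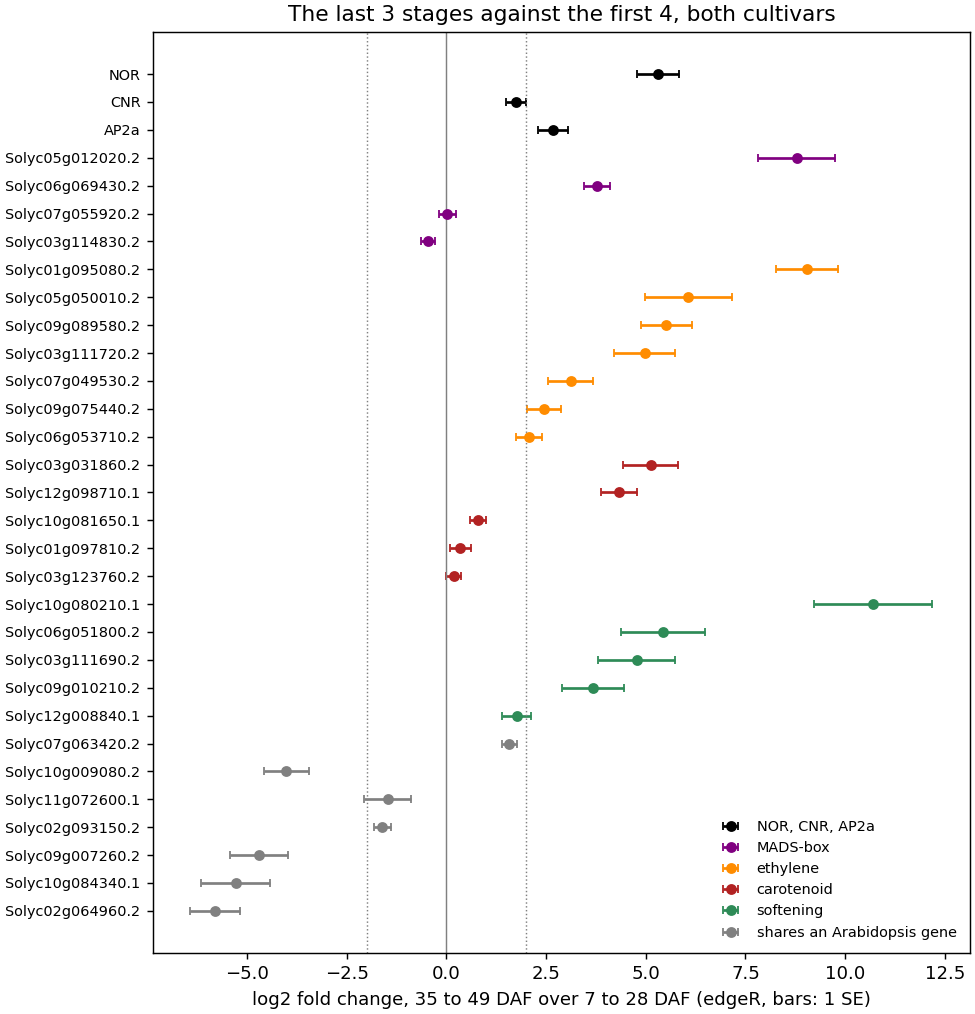
Log2 fold change of 35 to 49 DAF over 7 to 28 DAF in edgeR, with 1 SE, for the 3 regulators, 21 loci of 4 ripening lists and 7 loci that share a closest Arabidopsis gene with a regulator or are closest to TOE1. Dotted lines mark a log2 fold change of 2 in either direction, Solyc04g049800.2 is left out because of its large error, and NOR, CNR and AP2a lie at 5.31, 1.75 and 2.67.

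In HG6-61 13 of the 21 loci were highest at 42 DAF, the stage of the maxima of NOR and AP2a, 6 at 49 DAF and 1 each at 35 and 21 DAF. Of all genes tested with a level above 0 in that cultivar, 14.9% were highest at 42 DAF. In AC 17 of the loci were highest at 35 DAF, again the stage of NOR and AP2a, 2 at 42 DAF and 1 each at 49 and 21 DAF, where 7.45% of all genes were highest at 35 DAF. CNR, highest at 49 DAF in both cultivars, shared that stage with 6 loci in HG6-61 and with 1 in AC, Solyc07g049530.2, closest to the ACC oxidase gene EFE. Among all genes tested with a level above 0, 13.9% were highest at 49 DAF in HG6-61 and 13.6% in AC.

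A stage before the maxima of NOR and AP2a, the regulators and the 21 loci had come to different shares of their highest levels, a measure chosen after the levels were seen. CNR, highest at 49 DAF in both cultivars, and several of the loci had their maxima at other stages. The shares are therefore taken at unlike distances from the maximum. In HG6-61 at 35 DAF NOR stood at 29.0% of its maximum in that cultivar, CNR at 27.7% and AP2a at 13.5%, while the 21 loci ran from 0.216% to 100% with a median of 8.46%. Of the 21 loci 5 were above NOR, 7 above CNR and 9 above AP2a. RIN stood at 1.15% there (567 RPKM at 42 DAF, with 6.50 RPKM at 35 DAF) and phytoene synthase at 1.66%. Solyc07g049530.2 (EFE) stood at 32.4%, Solyc06g053710.2, closest to the receptor gene EIN4, at 28.8% and Solyc06g069430.2 (FUL) at 28.0%, all near NOR.

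In AC at 28 DAF NOR stood at 46.3% of its maximum, CNR at 22.7% and AP2a at 17.2%, beside a range of 0% to 99.6% and a median of 12.5% for the 21 loci. There 7 of the 21 loci were above NOR, 10 above CNR and 10 above AP2a. The 6 loci that did not pass in the late comparison were all above the 3 regulators in AC, and 4 of them were above NOR in HG6-61. RIN stood at 8.14% in AC (534 RPKM at 42 DAF, with 43.5 RPKM at 28 DAF), phytoene synthase at 11.4%, Solyc06g053710.2 (EIN4) at 45.1% and Solyc07g049530.2 (EFE) at 99.6%. Seed genes were high in both of these libraries, at a summed 3931 RPKM in HG6-61 at 35 DAF and 16383 RPKM in AC at 28 DAF, and their part in these values was not tested.

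**Figure D5:**
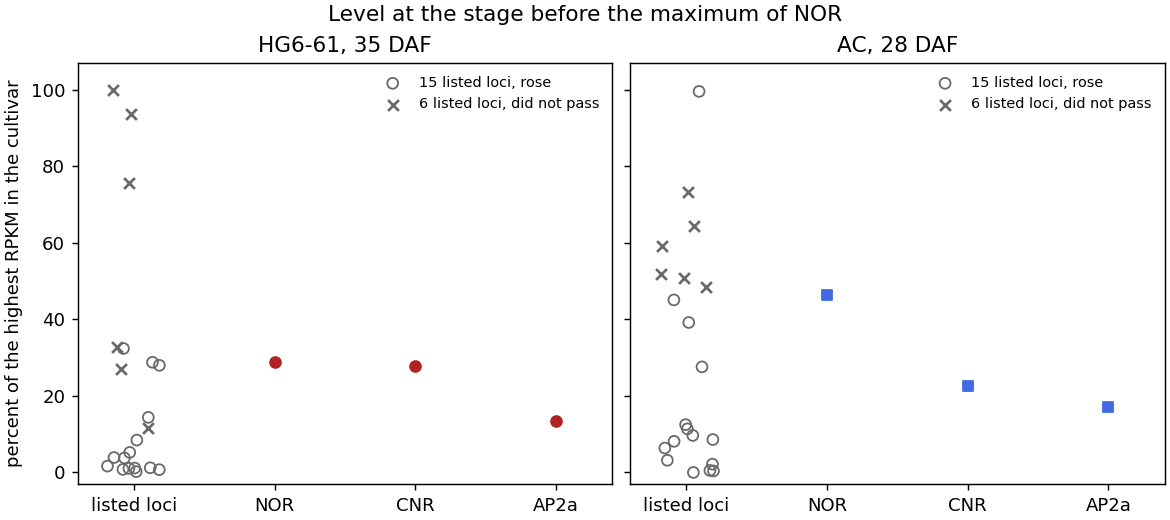
Percent of the highest RPKM in the same cultivar reached by NOR, CNR and AP2a (filled) and by the 21 listed loci in HG6-61 at 35 DAF (left) and AC at 28 DAF (right), 1 library each, with open circles for the 15 loci that rose at the last 3 stages and crosses for the 6 that did not pass. NOR is at 29.0% in HG6-61 and 46.3% in AC, within the range of the listed loci, whose medians are 8.46% and 12.5%.

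Close relatives of the regulators were measured beside them. The other locus whose closest Arabidopsis gene is NARS1, Solyc07g063420.2, had 5.71, 37.1, 75.1, 142, 262, 68.3 and 52 RPKM from 7 to 49 DAF in HG6-61 and 3.9, 46.3, 133, 118, 182, 83.3 and 63.2 RPKM in AC. It was thus highest at 35 DAF in both cultivars and had its highest level before NOR in HG6-61. Its late difference was 1.58 ± 0.19 on the log2 scale (adjusted p = 5.2e-05), under the limit on size, but at 42 against 7 DAF it was called higher, by 4.22 ± 0.40 (adjusted p = 3.69e-05). Of the 2 other loci closest to SPL3, Solyc10g009080.2 fell at the late stages (log2 fold change -4.01 ± 0.56, adjusted p = 0.000231), with 53.1 RPKM in HG6-61 and 35.2 RPKM in AC at 7 DAF and 0 in both at 49 DAF. The remaining one, Solyc07g062980.2, had too few reads for the test and at most 9.32 RPKM. Of 7 loci closest to FLO2 or to its relative TOE1, 6 could be tested, 3 fell and none rose, with a median of -3.15. Of all 18082 genes tested, 2363 were called lower and 929 higher. The 6 loci had between 129 reads (Solyc04g049800.2) and 1668 reads (Solyc02g093150.2) over the 14 libraries. Solyc02g064960.2, closest to FLO2, fell by 5.79 ± 0.63 on the log2 scale and Solyc02g093150.2, also closest to FLO2, had a value of -1.60 ± 0.21 with at most 31.4 RPKM. None of these relatives had the late climb to a maximum at 42 or 49 DAF that NOR, CNR and AP2a had in HG6-61.

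Among 18082 genes, the 5 whose log2 CPM were most like those of NOR over the 14 libraries had Pearson's r between 0.972 and 0.976. They were Solyc03g034140.2, Solyc11g072470.1 (closest to LBD1), Solyc02g070020.1, Solyc01g107840.2 (closest to UGT73B3) and Solyc09g092500.1. For AP2a r was 0.951 to 0.963, with Solyc07g052960.1, Solyc06g006100.2 (closest to ATHANSYNAB), Solyc10g080210.1 (QRT2, of the softening list), Solyc03g025970.2 (closest to MBD13) and Solyc02g088260.2. For CNR r was 0.918 to 0.935, with Solyc02g091520.2, Solyc09g091470.2 (closest to PKT3), Solyc07g066670.2 (closest to KS1), Solyc04g063380.2 (closest to SKP2A) and Solyc08g082980.2 (closest to WNK8). Over the same libraries r of NOR with AP2a was 0.814, of NOR with CNR 0.723 and of CNR with AP2a 0.684. All libraries share the age of the fruit, and these genes were picked as the highest of many.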

How the data were processed

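RNA-seq was carried out on pericarp of HG6-61 and AC at 7 stages, with 1 library for each. The authors mapped reads to the tomato genome SL2.40 with TopHat, allowing up to 2 mismatches, and discarded reads that mapped to more than 1 place, so that close relatives lose shared reads. The counts deposited by the authors are whole reads per gene for 26397 genes, and for 26684 genes the authors also deposited RPKM, which scale reads to gene length and library depth. No column was left unmapped to a sample.

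Libraries held between 1461817 and 6274456 counts (median 2609696), and the read number of each gene gave exact 95% Poisson intervals. Ratios of 2 libraries were taken on counts scaled to the library total (CPM), with exact conditional binomial intervals, and a count of 0 was set to 3 reads for a limit. These cover counting error only.

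Counts were tested with edgeR 4.0.16 in R 4.3.3 (TMM factors, filterByExpr, quasi-likelihood test, Benjamini-Hochberg adjustment over 18082 genes), fitted to all 14 libraries with terms for cultivar and stage. The cultivars served here as the 2 samples of a stage, whereas the study compared stages within each cultivar. Calls needed an adjusted p under 0.01 and, for stages and cultivars, a log2 fold change beyond 2. Alternatives were DESeq2 1.42.0, limma 3.58.1 on log2(RPKM + 1), DESeq2 size factors, no filter, no cultivar term, the 4 libraries of the stages compared, and leaving out each library in turn. The contrast of 42 against 35 DAF between cultivars, the percent of the maximum and the fits without both libraries of 35 DAF were added after seeing the data. Correlations used Python 3.11.15 with scipy 1.17.1.

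Named genes were the 3 regulators, the loci of the lists, and for each regulator the 5 genes with the highest Pearson's r of log2 CPM (prior count 2). The regulators, lists and seed genes were chosen with earlier results of these data known. The test scripts were tested on simulated counts. The labels do not tie a replicate number to shared plants, and each group is 1 library, so that HG6-61 and AC are paired by stage alone. Sequences of the genes, their promoters and the microRNAs were not used here.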

Additional observations from a re-analysis of the deposited data

Results flagged for a closer look

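All 3 regulators moved in opposite directions in the cultivars between the same calendar stages. In the step of 42 against 35 DAF each was higher at 42 DAF in HG6-61 and lower at 42 DAF in AC, with both ratios outside counting error. The log2 ratio in HG6-61 minus that in AC was 2.12 for NOR, 2.00 for CNR and 3.78 for AP2a. Each value compares 4 single libraries. The edgeR test of this difference over all libraries gave adjusted p of 0.663 for NOR, 0.269 for CNR and 0.217 for AP2a, so that it did not pass for any of them, and DESeq2 called AP2a alone (adjusted p = 0.00762). Over all alternatives run, the adjusted p ran from 0.353 to 0.909 for NOR, from 0.0931 to 0.45 for CNR and from 0.00762 to 0.412 for AP2a.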

How the results depend on the processing

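The stage of the highest level in each cultivar was the same in RPKM, CPM and RPKM rescaled with TMM factors for all 3 regulators. Over the last 3 stages against the first 4, NOR and AP2a were called and CNR was not under every alternative run. With limma on log2(RPKM + 1) the median of all genes in that comparison was -0.43, against -0.17 in edgeR. Calls against 7 DAF changed with the processing for CNR and AP2a. CNR became called at 14 DAF with DESeq2 (2.30), in the 4 libraries of the 2 stages (2.39) and without both libraries of 35 DAF (2.36), and at 28 DAF with no filter (2.05), in the 4 libraries (2.08) and without both libraries of 35 DAF (2.05). CNR lost its call at 21 DAF with no cultivar term (2.56) and at 35 DAF in the 4 libraries (3.24). AP2a became called at 35 DAF with DESeq2 (2.80) and with no filter (3.03), and at 49 DAF with DESeq2 (2.56), no filter (2.69), the 4 libraries (2.47) and without both libraries of 35 DAF (2.63). Its test of any difference between stages was lost with limma (adjusted p = 0.0236), and its step of 42 against 35 DAF between cultivars was called with DESeq2 (3.80). The cause was not tested. NOR in the 4 libraries of 14 or 21 DAF and 7 DAF did not pass the filter and has no value.

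Leaving out each library in turn changed a call or sign for these results, over these ranges of log2 fold change. NOR against 7 DAF lay between 4.58 and 10.17 at 28 DAF, 7.52 and 12.01 at 35 DAF, and 6.68 and 11.33 at 49 DAF. CNR lay between 1.93 and 2.90 at 14 DAF, 2.11 and 3.07 at 21 DAF, 1.56 and 2.52 at 28 DAF, 2.31 and 4.04 at 35 DAF, and 2.53 and 3.49 at 42 DAF. AP2a lay between 1.39 and 3.69 at 35 DAF, 2.28 and 4.48 at 42 DAF, and 1.76 and 3.32 at 49 DAF, its adjusted p for any difference between 0.000427 and 0.0132, and its difference between cultivars in the late rise between -0.11 and 1.82.

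The number of genes called changed by over 1.5 times in the following. At 14 DAF against 7 DAF it was 122, with 257 for no filter, 392 for DESeq2, 328 for limma, 57 for no cultivar term, 189 without 35 DAF and 812 in the 4 libraries. At 21 DAF it was 784, with 1303 for DESeq2, 509 for no cultivar term and 2007 in the 4 libraries, and at 28 DAF 1779, with 2912 in the 4 libraries. Any difference between stages gave 5946 and 9354 with DESeq2. HG6-61 against AC gave 43, with 85 for no filter and 116 for DESeq2. At 35 DAF beyond the other stages it gave 11, with 44 for no filter and 127 for DESeq2, and in the step of 42 against 35 DAF 2, with 13 for no filter, 64 for DESeq2 and 1 for limma. At 49 DAF beyond the other stages no filter gave 1. Leaving out 1 library gave 11 to 211 at 14 DAF, 113 to 1039 at 21 DAF, 481 to 2124 at 28 DAF, 1036 to 2982 at 35 DAF, 2055 to 4032 at 42 DAF and 2137 to 4305 at 49 DAF, each lowest without AC at 7 DAF, as was any difference (3511 to 6214). It gave 19 to 48 for HG6-61 against AC, lowest without HG6-61 at 21 DAF, 3 to 34 at 35 DAF beyond the other stages, 0 or 1 at 28 DAF, and 0 to 7 in the step of 42 against 35 DAF, while the last 3 stages against the first 4 gave 2748 to 3472.

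Among the listed loci that did not pass in the last 3 stages against the first 4, the sign turned for Solyc07g055920.2 with limma (-0.32) and without both libraries of 35 DAF (-0.35), and for Solyc03g123760.2 (-0.12) and Solyc01g097810.2 (-0.054) with limma. That of Solyc04g049800.2 turned with DESeq2 (0.024), no cultivar term (0.023) and no filter (0.038). Leaving out 1 library gave between -0.11 and 0.29 for Solyc07g055920.2, -0.030 and 0.61 for Solyc01g097810.2, and -0.29 and 0.66 for Solyc04g049800.2. Of the 5 genes most like each regulator, at most 2 were again among the 5 with Spearman's rho, and at most 1 with the libraries of a single cultivar. With 1 library per cultivar and stage, no spread between plants can be given, and NOR cannot be compared at 7 DAF at this depth. The comparisons of HG6-61 with AC were paired by stage, and with no replicate numbers in the labels no other pairing was tried.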
